A study of Rattus norvegicus with 9 samples.

Results

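Left ventricles of untreated spontaneously hypertensive rats (SHR, a strain bred from Wistar stock for inherited high blood pressure) were set against those of untreated Wistar Kyoto rats (WKY, the normotensive strain from the same stock), over every gene with a mean FPKM of at least 1 in the 9 libraries of the study. FPKM scales reads to transcript length and library total, so levels of different genes can be set side by side. That rule took 12451 of 19294 genes with values, and 6843 fell below it. There were 3 WKY and 3 SHR libraries, and 3 libraries of SHR given oxymatrine (an alkaloid of Sophora roots) helped to estimate the spread. The labels used here name neither age nor dose, and do not say that replicates were separate animals; the p-values therefore rest on a spread that may be technical. Genes were tested with limma on log2(FPKM + 1), and called at an adjusted p under 0.05 (Benjamini-Hochberg over all tested genes). Differences are SHR minus WKY on that log2 scale, where changes of low genes come out too small.

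The heart muscle cell burns fatty acids in densely packed mitochondria and beats against a load set by the arteries, while most nuclei of the ventricle lie in other cells, such as endothelium and fibroblasts. Inbred strains differ in many sequence variants that have no bearing on blood pressure: genes can be lost, copied or rewired in 1 line, so a strain contrast holds inherited differences as well as those of a loaded ventricle. A bulk library sums all these cells, and fewer cells of a type cannot be told apart from less RNA per cell.

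The FPKM sums lay between 587526 and 606633 and between 12231 and 12514 genes reached 1 FPKM, with depth in reads unknown. Across genes, libraries of 1 strain correlated at 0.988 to 0.991 and libraries of different strains at 0.973 to 0.977 on the log2 scale. The first principal component of the 6 libraries held 58.6% of the variance, with WKY at 19.3 to 22.2 and SHR at -22.3 to -18.6, so that it parted the strains. The second held 12.4% and set WKY replicate 3 apart at -15.9, against -5.9 to 11.1 in the other 5. The 10 defining heart muscle genes summed to 55970 to 57330 FPKM in WKY and 58300 to 62120 in SHR, which fits the labelled tissue.

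In all, 4215 genes (33.9% of those tested) were called: 1343 (10.8%) were higher and 2872 (23.1%) lower in SHR. The differences were mostly small. Of the called genes 73.9% differed by less than 0.5, 21.5% by 0.5 to 1, and 196 (1.57% of tested genes) by 1 or more, of which 91 (0.731%) were higher and 105 (0.843%) lower in SHR. That count was 327 (133 higher and 194 lower) with a pseudocount of 0.1 and 115 among genes with a mean of at least 5 FPKM. Only 28 genes differed by 2 or more. The 3 values of a strain did not overlap those of the other in 4160 of the called genes, where 48.1% of all tested genes showed no overlap. The excess of lower calls depended on the scaling: the median difference of all genes was -0.08 in the FPKM as deposited, and with median-of-ratios scaling, which moved that median by 0.08, 2033 genes (16.3%) were higher and 1789 (14.4%) lower. Quantile normalization gave 1896 higher (15.2%) and 1825 lower (14.7%). The direction of small differences therefore rests on the scaling, and counts under median-of-ratios scaling stand beside those of gene groups.

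Abundant and scarce transcripts did not divide alike. Among genes with a mean of 1 to 2 FPKM 4.5% were called higher in SHR and 16.1% lower. Among those of 50 to 100 FPKM 23.3% were higher and 20.6% lower. With median-of-ratios scaling the shares were 5.9% higher and 11.4% lower at 1 to 2 FPKM, and 32.9% higher and 11.3% lower at 50 to 100 FPKM. These bins were chosen after the values were seen.

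**Figure D1:**
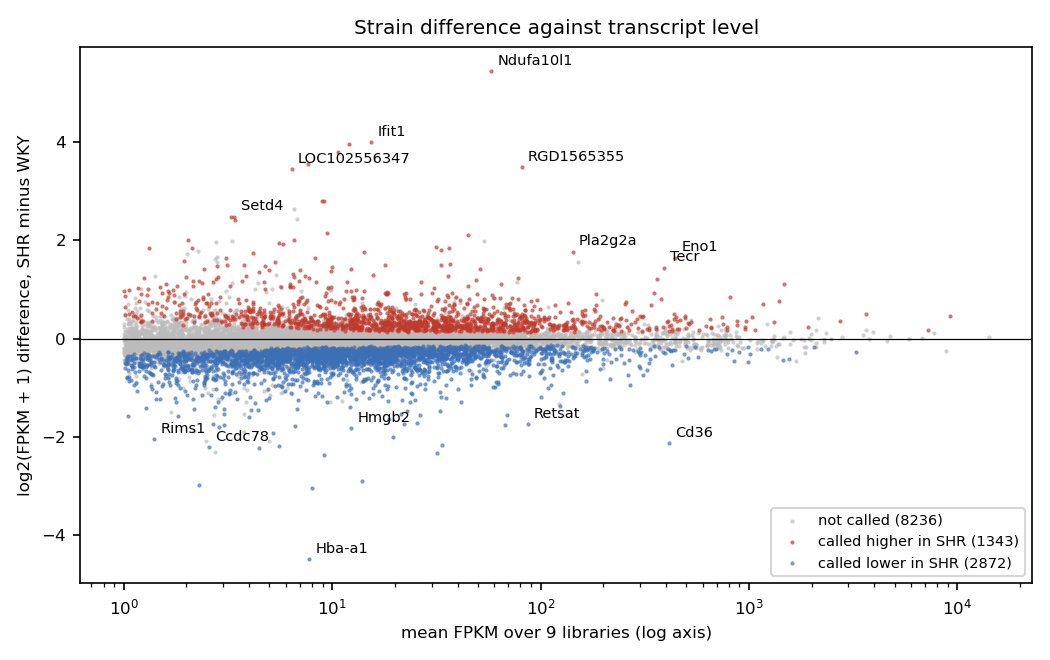
Each point is 1 of 12451 tested genes, with its mean FPKM over 9 libraries on a log axis against the log2(FPKM + 1) difference of SHR minus WKY. Red points are the 1343 genes called higher and blue points the 2872 called lower in SHR, most of them within 0.5 of the zero line, with the copy Ndufa10l1 highest and Hba-a1, listed at 0 in SHR, lowest.

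Some genes were present in 1 strain and near nothing in the other. With under 0.5 FPKM in all 3 libraries of 1 strain and at least 2 FPKM in all 3 of the other, 8 genes were present in SHR (Ifit1, Setd4, Cbr3 and 5 gene copies) and 3 in WKY (Rims1, Hba-a1 and Hist1h2bk), with no test attached to this description. Hba-a1 (Hba-a3 in RefSeq) and Hist1h2bk (H2bc12) also belong to families of similar genes, so the division of reads there is uncertain. The count was 7 when 5 FPKM was asked for and 12 to 17 with 1 of the 6 libraries left out, the highest without SHR replicate 2 (and 12 to 15 without 1 of the WKY libraries).

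Setd4, which encodes a SET-domain protein methyltransferase, stood at 0.09, 0 and 0.04 FPKM across the WKY libraries and at 4.71, 4.86 and 4.94 in SHR. It is a low transcript of the SHR ventricle and was close to 0 in every WKY library. The difference was 2.48 (SE 0.09, adjusted p = 2.47e-07). Next to it in the gene order lie the carbonyl reductases, enzymes that reduce ketones and quinones with NADPH. Cbr3 was listed at 0 in all 3 WKY libraries and at 2.85, 2.59 and 3.66 FPKM in SHR (adjusted p = 5.45e-06). A Cbr1-like copy, LOC102556347 (Cbr1l2 in RefSeq), was also listed at 0 in WKY and had 11.5, 10.5 and 8.20 FPKM in SHR (adjusted p = 1.94e-05). Cbr1 itself had 0, 0.09 and 0 FPKM across the WKY libraries and 0.69, 5.64 and 4.85 in SHR; the strains did not overlap, but it was not called (adjusted p = 0.075). The genes on either side of this block differed far less: Runx1, a transcription factor of blood formation, by 0.33 (adjusted p = 0.0321, lost without WKY replicate 1, among other settings) and Dopey2 by -0.22 (adjusted p = 0.0987). The start sites of Setd4 and Cbr1 lie 2381 bases apart on opposite strands in the RefSeq annotation. Cbr1, its copy and Cbr3 are similar in sequence, so the division of reads among them is uncertain.

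Rims1, a scaffold of the presynaptic active zone, went the other way, at 3.91, 3.68 and 4.02 FPKM across the WKY libraries and 0.12, 0.21 and 0.21 in SHR, a difference of -2.05 (SE 0.12, adjusted p = 5.48e-06). Another presynaptic gene, the vesicular glutamate transporter Slc17a7, stood at 0.11, 0.33 and 0.55 FPKM across the WKY libraries and 6.33, 5.97 and 5.89 in SHR. Both genes separated the strains completely, in opposite directions. Of 38 tested synaptic and neuronal genes 9 (23.7%) were higher and 9 (23.7%) lower, where 10.8% and 23.1% of all genes were. The share of higher members thus lay above that of all genes, and the share of lower members near it. Median-of-ratios scaling gave 10 and 7, against shares over all genes of 16.3% and 14.4%. Most of the 100 in that list did not reach the filter.

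Of the genes listed at 0, Pak2 (a kinase downstream of Rac and Cdc42) had 0 in all WKY libraries and 1.58, 4.35 and 2.34 FPKM in SHR. Pak2 is used by most cells, and no more is said of WKY than that it is listed at 0.

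Several of the strongest differences were in copies of other genes, named here after their values were seen. A copy of Cd36, which encodes the fatty acid transporter of the muscle membrane, is entered as RGD1565355 (Cd36l1 in RefSeq). It had 4.43, 14.1 and 13.5 FPKM across the WKY libraries and 121, 127 and 109 in SHR, a difference of 3.50 (SE 0.32, adjusted p = 9.77e-05). Cd36 itself had 871, 785 and 943 FPKM across the WKY libraries and 193, 202 and 195 in SHR. Copy and parent thus went in opposite directions, and together they held 877 ± 78.8 FPKM in WKY and 316 ± 13.03 in SHR (SD, n = 3). The copy made 35.8% to 38.7% of that sum in SHR and at most 1.77% in WKY.

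The same pairing was drawn for 5 other copies, each nearly silent in WKY. The copy of Eif4g2, a translation initiation regulator (LOC501116), had 0.41, 0 and 0.34 FPKM across the WKY libraries and 18.1, 15.6 and 21.9 in SHR, a difference of 3.97 (adjusted p = 3.64e-06). Its sum with Eif4g2 was 197 ± 6.43 FPKM in WKY and 209 ± 5.38 in SHR. The copy made 7.51% to 10.2% of that sum in SHR libraries and at most 0.212% in WKY. The copy of Diablo (LOC100360940), whose parent encodes a mitochondrial protein that frees caspases from their inhibitors, had 0, 0.14 and 0.25 FPKM across the WKY libraries and 12.8, 11.1 and 13.01 in SHR, a difference of 3.56. Diablo itself was lower in SHR, at 36.7, 38.9 and 34.3 FPKM across the WKY libraries and 30.7, 28.1 and 28.9 in SHR (log2 difference -0.31, adjusted p = 0.00345). The sum of both was 36.8 ± 2.23 FPKM in WKY and 41.6 ± 2.18 in SHR. For Ndufa10l1, copy of a subunit gene of respiratory complex I, the share of the sum was 24.1% to 29.6% in SHR. The pseudogenes Rpl38-ps9 (LOC685963) and Eif5-ps1 (RGD1564400) were listed at 0 in every WKY library and made 2.85% to 4.43% and 4.64% to 8.76% of the sum with their parents in SHR. The parents Eif4g2, Rpl38, Eif5 and Ndufa10 were not called. RSEM divides reads between similar sequences, and the build named in the processing notes is of the Brown Norway strain, so how much of each copy's value is its own transcript is uncertain. Of 97 tested pseudogenes 8 were higher and 11 lower, a share of 19.6% called where 33.9% of all genes were. In 292 tested genes, true relatives among them, the RefSeq symbol extends that of another tested gene. Of these 28 were called higher and 64 lower, where 10.8% and 23.1% of all genes were. By at least 1, 10 (3.42%) were higher and 1 lower, where 0.731% and 0.843% of all genes were.

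**Figure D2:**
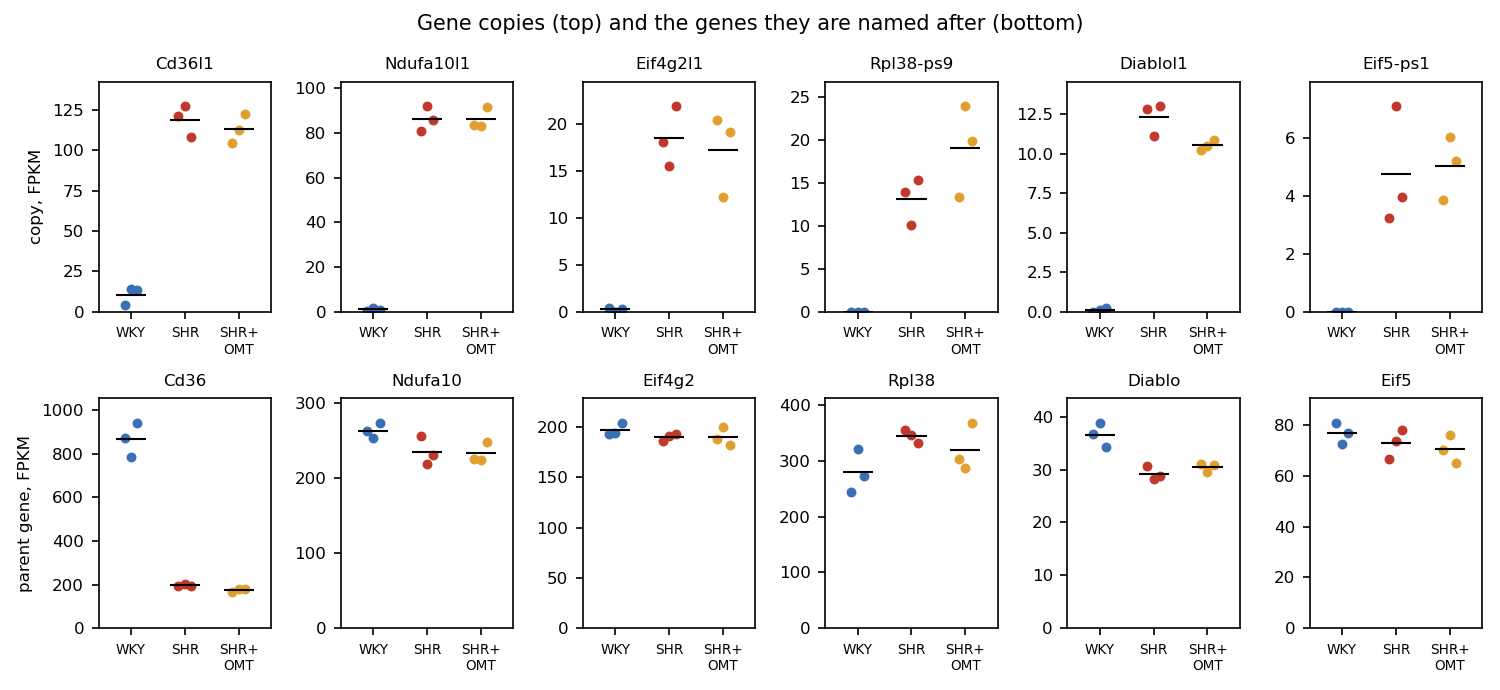
FPKM of 6 gene copies (top row) and the genes they are named after (bottom row) in the 9 libraries, with points for libraries and lines for group means, on axes that start at 0 and differ between panels. The copies lie near 0 in WKY (Cd36l1 at 4.43 to 14.1) and higher in SHR and in SHR given oxymatrine (SHR+OMT), while of the parents Cd36 shows the widest gap.

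Called genes had called neighbours more often than other genes did. Of 704 genes called lower by at least 0.5 whose place in the gene order is known, 25.7% had a tested neighbour called the same way, where 11.1% of all 11983 placed genes had such a neighbour. For genes higher by at least 0.5 the shares were 8.91% of 348 and 5.67%. Runs of 3 or more adjacent tested genes, all called the same way by at least 0.5, numbered 16 with 60 genes, and 15 of the 16 were lower in SHR. The longest run held the 7 Gimap genes, small GTPases known from lymphocytes, from Gimap8 at -0.51 to Gimap4 at -0.95. Beside them both tested lymphocyte markers, of 10 in the list, were lower (neither with median-of-ratios scaling), with sums over the list of 6.84 to 9.14 FPKM in WKY and 4.58 to 5.38 in SHR and Ms4a1 at or below 0.5 FPKM. The part of lymphocyte RNA in these runs was not tested. The 5 Schlafen genes, which restrict growth and viral replication, ran from -0.58 (Slfn2) to -1.20 (Slfn4). Others held guanylate-binding proteins (Gbp1, Gbp2, Gbp4 and Gbp5), immunity-related GTPases (Irgm, Igtp, Irgm2), the ADP-ribosyl transferases Parp9 and Parp14 with their partner Dtx3l, and histocompatibility genes. Members of such families resemble each other, so their values are not independent.

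A few runs held unrelated genes. Endog (a mitochondrial nuclease, -1.71) lay with Kyat1 (kynurenine aminotransferase, -0.81), and Gatm (-0.85), the first enzyme of creatine synthesis, lay with Slc28a2 (a nucleoside transporter, -0.60) and Shf (-0.68). Gatm had 26.2, 20.9 and 23.8 FPKM across the WKY libraries and 12.9, 12.02 and 12.9 in SHR. The only run higher in SHR joined Cacna1g, a T-type calcium channel, with the endocytic epsin Epn3 and with Mycbpap. Mycbpap stood at 4.14, 4.05 and 3.82 FPKM across the WKY libraries and 13.5, 13.7 and 11.4 in SHR, with no overlap (1.47, SE 0.08, adjusted p = 3.80e-06). Epn3 differed by 1.27 and Cacna1g by 0.53 (adjusted p = 0.0299, lost without WKY replicate 1 or 3 or SHR replicate 2 or 3). The next gene, Rsad1, was not called (0.15), and Acsf2, an acyl-CoA synthetase beyond it, was higher by 0.65.

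Other near pairs were picked after their values were seen. Sphkap, an anchor of protein kinase A, had 1.22, 1.29 and 6.48 FPKM across the WKY libraries and 14.03, 17.2 and 11.2 in SHR (2.15, adjusted p = 0.0034). Dner, a Notch-binding membrane protein, stood at 0.15, 0.14 and 0.18 FPKM across the WKY libraries and at 1.74, 1.72 and 1.77 in SHR (1.25). Pid1 between them was not called (0.11). Apln, the heart peptide apelin, and Xpnpep2, a membrane aminopeptidase, were both lower (-1.13 and -1.28). The interferon gene Ifi44l, lower (-2.36), lies beside the prostaglandin receptor gene Ptgfr, higher by 2.80, so neighbours also went opposite ways.

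**Figure D3:**
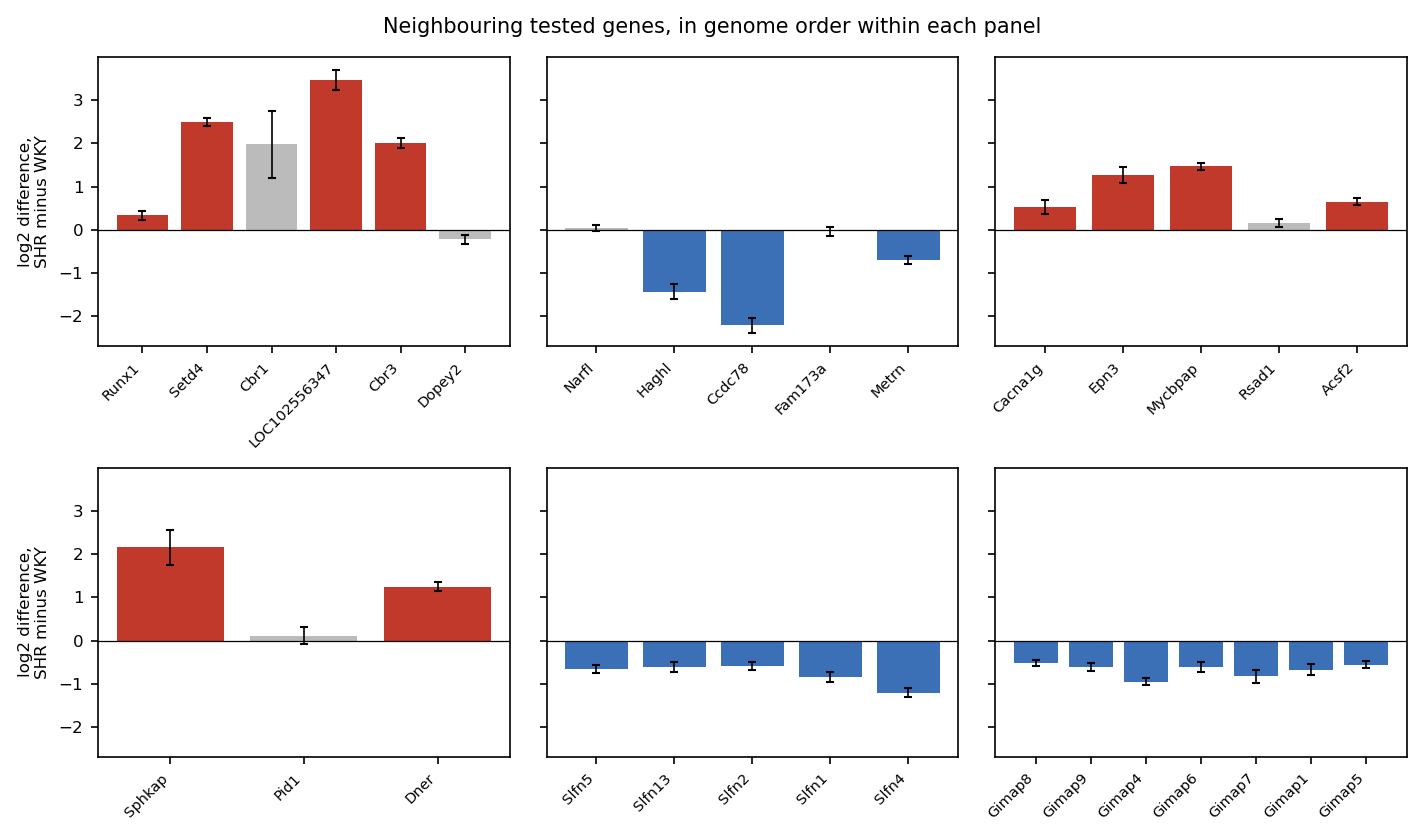
Log2 differences of SHR minus WKY for neighbouring tested genes in genome order, 6 groups of neighbours, with bars for the fitted difference and lines for its standard error; grey bars were not called. Setd4 (2.48) and its neighbours stand between low bars of Runx1 and Dopey2, and the bars of LOC102556347 and Cbr3 are fitted differences against WKY values listed at 0.

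Ccdc78, which encodes a protein of centriole assembly in ciliated cells, and its neighbour Haghl, a relative of glyoxalase II, lie head to head. Ccdc78 had 5.93, 8.20 and 4.43 FPKM across the WKY libraries and 0.44, 0.54 and 0.59 in SHR, and Haghl had 5.50, 4.35 and 3.21 in WKY and 0.94, 0.71 and 1.26 in SHR. Neither overlapped between the strains, with differences of -2.21 (SE 0.17, adjusted p = 3.81e-05) and -1.43 (SE 0.17, adjusted p = 0.000337). Of the neighbours Narfl (0.05) and Fam173a (-0.03) were not called, and Metrn, a secreted neurotrophic factor, was lower (-0.70). The promoter window of Ccdc78 is printed because 2 of 4 annotated start sites of Haghl lie inside it, 155 and 163 bases from the Ccdc78 start. It runs over chr10:15312153-15312452 on the plus strand of GRCr8 (RefSeq, the Brown Norway reference and neither strain of the study), and the 3 capitals mark the start sites, the first 2 those of Haghl.
Ccdc78: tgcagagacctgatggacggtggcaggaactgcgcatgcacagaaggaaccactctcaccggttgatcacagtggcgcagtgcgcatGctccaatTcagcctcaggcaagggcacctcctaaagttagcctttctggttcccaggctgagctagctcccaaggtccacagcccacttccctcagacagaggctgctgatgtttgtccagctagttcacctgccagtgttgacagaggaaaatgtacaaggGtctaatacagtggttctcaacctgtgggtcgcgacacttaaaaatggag

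Genes lower in SHR by at least 1 carried a known interferon motif more often. Only 1 motif was searched, GAAA, any 2 bases and GAAA again, on both strands, the core of the element that interferon-activated factors bind, in RefSeq windows from 250 bases before to 50 after the start. It was found in 16.4% (11 of 67) of genes called lower by at least 1, 7.32% of those lower by 0.5 to 1, 3.51% of those lower by less than 0.5 and 2.83% of genes not called. Of genes higher by less than 0.5 it was in 1.77%, by 0.5 to 1 in 1.99% and by at least 1 in 3.45% (RT1-S2 and Frzb). The share over all 9857 tested genes with a window was 3.17%. Of 55 genes in the runs with a window 20 held it. A gene counted when any of its windows matched, so genes with more annotated starts had more chances. Relatives such as Oas1a and Oas1b, or Ifi44 and Ifi44l, counted separately, so the genes behind these shares are not independent. The motif was chosen with the interferon genes already known to be lower, so the gradient is a description, and a match does not show binding. The windows of Ifi44l (-2.36), the helicase gene Ddx60 (-1.43) and Oas1a, a sensor of double-stranded RNA (-1.24), are shown with matches in capitals; in Oas1a 2 matches overlap. They lie at chr2:243328473-243328772 (plus), chr16:33208790-33209089 (minus) and chr12:41330216-41330515 (plus) of GRCr8.
Ifi44l: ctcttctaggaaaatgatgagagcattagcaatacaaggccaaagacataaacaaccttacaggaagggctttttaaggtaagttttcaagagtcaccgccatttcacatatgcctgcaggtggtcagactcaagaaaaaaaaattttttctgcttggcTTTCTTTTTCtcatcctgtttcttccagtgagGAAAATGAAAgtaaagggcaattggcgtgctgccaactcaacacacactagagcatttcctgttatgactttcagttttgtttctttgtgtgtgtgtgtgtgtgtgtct
Ddx60: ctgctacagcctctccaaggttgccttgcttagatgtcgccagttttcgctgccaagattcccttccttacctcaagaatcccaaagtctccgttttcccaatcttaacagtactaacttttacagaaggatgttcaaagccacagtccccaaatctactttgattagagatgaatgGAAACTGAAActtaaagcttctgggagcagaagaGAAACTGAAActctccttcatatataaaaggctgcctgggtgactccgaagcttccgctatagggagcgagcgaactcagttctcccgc
Oas1a: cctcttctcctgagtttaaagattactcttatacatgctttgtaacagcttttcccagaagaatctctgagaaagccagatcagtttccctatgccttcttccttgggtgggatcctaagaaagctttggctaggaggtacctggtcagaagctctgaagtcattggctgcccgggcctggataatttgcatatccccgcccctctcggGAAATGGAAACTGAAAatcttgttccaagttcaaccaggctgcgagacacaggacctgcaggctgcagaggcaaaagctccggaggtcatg

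Ifi44l had 18.1, 21.3 and 20.8 FPKM across the WKY libraries and 2.80, 2.77 and 3.78 in SHR. Ddx60 had 5.21, 5.48 and 5.81 in WKY and 1.41, 1.13 and 1.73 in SHR. In both the strains lay well apart, and SHR given oxymatrine had 3.77 to 5.05 FPKM of Ifi44l and 2.03 to 2.49 of Ddx60.

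Several lipid and retinoid genes were among the larger differences of abundant transcripts. Tecr, which catalyses the last step of very long chain fatty acid elongation, had 187, 197 and 172 FPKM across the WKY libraries and 460.0, 550.5 and 510.3 in SHR, with no overlap, a difference of 1.45 (SE 0.08, adjusted p = 4.03e-06). Pla2g2a, a secreted phospholipase, had 44.97, 60.5 and 58.2 FPKM across the WKY libraries and 189, 214 and 163 in SHR (1.77, adjusted p = 0.000252). Gpihbp1, which holds lipoprotein lipase on the capillary wall, had 16.6, 13.9 and 24.1 FPKM across the WKY libraries and 55.0, 40.5 and 38.8 in SHR (1.27, adjusted p = 0.00145). Retsat, the enzyme that saturates retinol, went the other way, with 153, 147 and 187 FPKM across the WKY libraries and 46.0, 51.9 and 45.1 in SHR (-1.74, SE 0.10, adjusted p = 7.44e-06). Cidea, a protein of the lipid droplet, was lower (-0.87), and the peroxisomal membrane protein gene Pxmp4 was higher by 1.49. Of 50 tested genes of triglycerides, phospholipids and droplets 11 (22%) were higher and 8 (16%) lower, with a median of 0.08. Of all genes 10.8% were higher and 23.1% lower. With median-of-ratios scaling 17 list members were higher and 5 lower, where 16.3% and 14.4% of all genes were.

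Of 49 tested glutathione and xenobiotic enzymes 4 (8.16%) were higher and 12 (24.5%) lower, near the 10.8% and 23.1% of all genes, and 6 and 9 with median-of-ratios scaling. Cyp2e1, an ethanol-oxidising cytochrome, had 10.7, 12.3 and 6.30 FPKM across the WKY libraries and 2.47, 2.98 and 3.17 in SHR (-1.44, adjusted p = 0.000825). Gstz1, which acts in tyrosine breakdown, was lower (-0.96). The 4 higher members were Cbr3 (2.00), Mgst1 (0.37), Gstt3 (0.37) and Mgst3 (0.36). Mgst1 lost the call in 10 of 17 alternatives and Gstt3 in 6 of 16. Outside that list the carboxylesterase Ces1c was higher (1.49). Also outside it, Srxn1, which repairs oxidised peroxiredoxins, was higher by 0.93 and Hmox1, haem oxygenase, by 0.97. Of 43 selenoproteins and redox proteins 9 (20.9%) were higher and 5 (11.6%) lower, and 14 and 2 with median-of-ratios scaling.

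**Figure D4:**
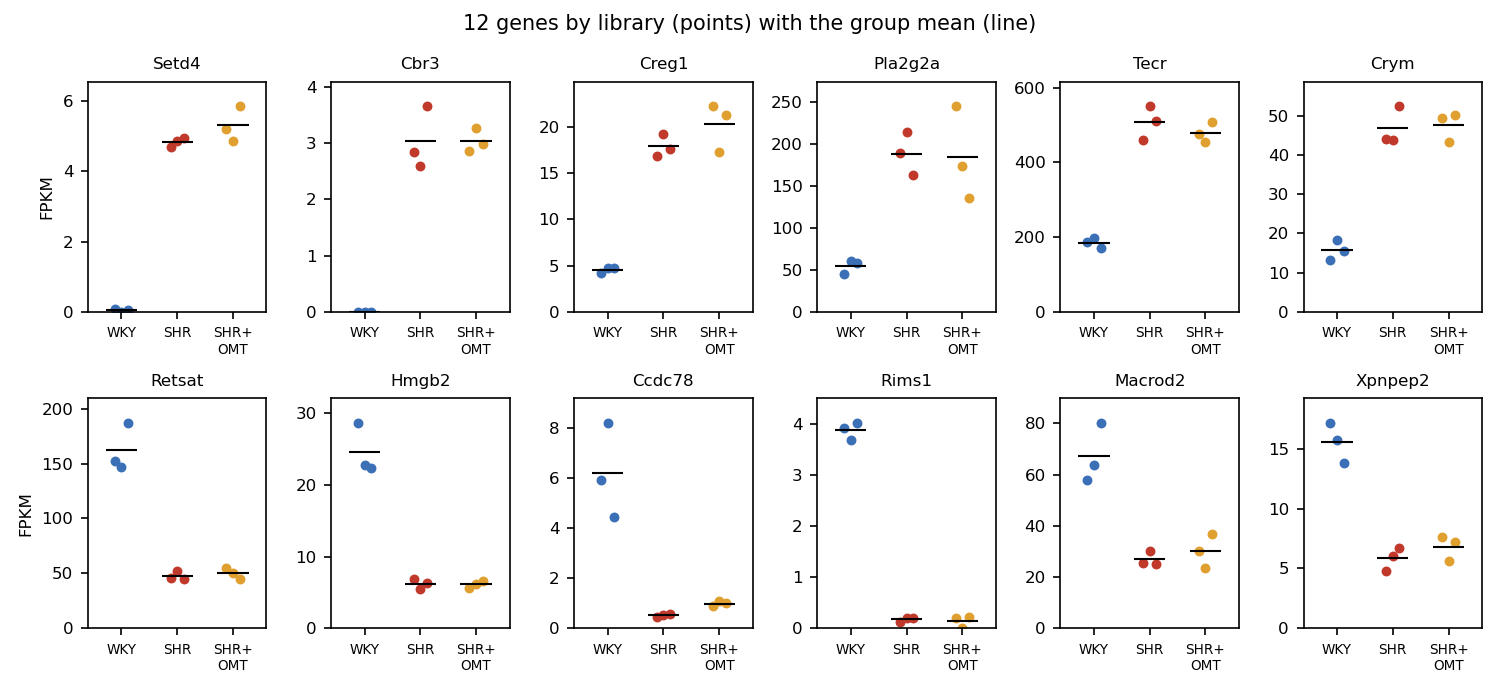
FPKM of 12 genes in each of the 9 libraries (points) with the group mean (line), for WKY, SHR and SHR given oxymatrine (SHR+OMT), on axes that start at 0. In each of the 12 panels the 3 WKY points lie apart from the 3 SHR points, and Setd4, Cbr3 and Rims1 are near 0 in 1 strain.

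Secreted and signalling genes were among the largest. Crym, which binds thyroid hormone in the cytosol, had 13.1, 18.4 and 15.6 FPKM across the WKY libraries and 44.2, 43.9 and 52.5 in SHR (1.53, adjusted p = 3.81e-05). Creg1, a secreted glycoprotein, was higher by 1.76. Both separated the strains without overlap. Map3k5, a kinase of the stress response, was higher by 1.23 and the actin regulator Enah by 1.42. Akip1, a partner of protein kinase A, lay at 14.7 to 18.2 FPKM in WKY and 39.8 to 59.8 in SHR (adjusted p = 0.000184). Kcne1, the small subunit of the slow delayed rectifier potassium channel, had 1.25, 1.80 and 3.14 FPKM across the WKY libraries and at least 6.77 in each SHR library (1.93, adjusted p = 0.000656). Slc9a3, a sodium-proton exchanger best known from kidney and gut, was higher by 1.17 at low levels, from 0.62 to 1.10 FPKM in WKY and 2.65 to 3.57 in SHR. Lower were Adcyap1r1, the receptor of PACAP (-1.11), and Icoslg, a ligand that costimulates T cells, at 26.4, 33.8 and 30.9 FPKM across the WKY libraries and 13.4, 11.8 and 11.2 in SHR (-1.26).

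Hmgb2, a protein that bends DNA, had 28.7, 22.7 and 22.3 FPKM across the WKY libraries and 6.83, 5.51 and 6.32 in SHR (-1.82, SE 0.11, adjusted p = 7.22e-06). Macrod2, which removes ADP-ribose from proteins, had 57.8, 63.8 and 80.3 FPKM across the WKY libraries and 25.7, 30.2 and 25.1 in SHR (-1.28, adjusted p = 0.000485). Hmgb2 and Macrod2 were both lower in every SHR library. The gene named after Hmgb2, Hmgb2l1, went the opposite way and was called higher by 0.31, though its values overlapped between the strains. Its mean level was 25.4 FPKM for SHR, against 20.2 for WKY. How RSEM divided reads between Hmgb2 and Hmgb2l1 was not tested, so the size of the Hmgb2 difference is uncertain. Lig4, the ligase of end joining, was higher by 1.19 and the telomere helicase Rtel1 by 1.26. Of 70 tested DNA repair genes 9 were higher (12.9%) and 15 lower (21.4%), shares close to those of all genes, but 12 and 9 with median-of-ratios scaling, so no direction can be given.

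Splicing factors had the highest share of lower members among the pathway lists. SR proteins and hnRNPs bind the pre-mRNA and decide which exons are kept. Of 67 tested genes of splicing and RNA binding, 39 (58.2%) were lower and 6 higher, with a median of -0.22, where 23.1% of all genes were lower and the median was -0.08. With median-of-ratios scaling 32 were lower and 7 higher, and with 1 library left out 32 to 41 were lower. Srsf9, an SR protein, had 16.6, 17.0 and 15.8 FPKM across the WKY libraries and 11.3, 9.98 and 11.4 in SHR (-0.55, adjusted p = 0.000276), and the RNA helicase Ddx17 was lower (-0.52). The cold-inducible Cirbp was lower (-0.40). Higher were the heart muscle factors Rbm20, which splices titin, at 19.2, 19.96 and 17.8 FPKM across the WKY libraries and 26.0, 29.0 and 27.1 in SHR (0.51, adjusted p = 0.000872), and Qk (0.65) and Rbfox2 (0.49).

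Of 94 tested chromatin modifiers 37 (39.4%) were lower and 4 higher, with a median of -0.19, where 23.1% of all genes were lower. With median-of-ratios scaling 19 were lower and 7 higher, where 14.4% of all genes were lower. With 1 library left out 20 to 37 were lower. Setdb1, a methyltransferase of histone H3, was lower (-0.44) and so was the deacetylase Hdac7 (-0.52). Beside Setd4, Smyd1, the methyltransferase of striated muscle, was higher (0.65, adjusted p = 0.000239).

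In the lists of mitochondrial genes of the nucleus more members were called higher than lower. Carriers and import proteins pass metabolites and precursor proteins through the mitochondrial membranes, and the dynamins fuse and divide these membranes. Of 72 tested genes 27 (37.5%) were higher and 7 lower, with a median of 0.14, and 40 and 6 with median-of-ratios scaling, where 10.8% and 16.3% of all genes were higher. Opa1, which fuses the inner membrane, had 39.8, 41.0 and 39.2 FPKM across the WKY libraries and 59.3, 58.0 and 64.2 in SHR (0.58, adjusted p = 0.000159), with no overlap. Letm1, an ion exchanger of the inner membrane, was higher by 0.59 and Mcu, the calcium uniporter, by 0.36. Fis1 and Timm22 were lower (-0.29 and -0.33). Of 87 tested genes of mitochondrial translation 22 (25.3%) were higher and 9 (10.3%) lower (40 and 3 with median-of-ratios scaling). Among them were Gfm2, a ribosome recycling factor, higher by 0.62, and Mrpl4, lower (-0.76). Of 39 transfer RNA synthetases 6 (15.4%) were higher and 0 lower (17 and 0). Abundant genes were called higher more often too: 16.4% of all genes at 20 to 50 FPKM, 23.3% at 50 to 100 and 19.9% at 100 or more. With median-of-ratios scaling these shares were 25.1%, 32.9% and 29.7%. The lists were not matched for level, and the part of transcript level in their counts was not tested.

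Other lists held calls in both directions. Of all genes 10.8% were higher and 23.1% lower, and 16.3% and 14.4% with median-of-ratios scaling. Of 42 muscle ubiquitin ligases and regulators 12 were higher and 5 lower, among them Fbxo40 (0.57), and with median-of-ratios scaling 15 and 0. Of 36 proteasome subunits and regulators 2 (5.56%) were higher and 8 (22.2%) lower, but 6 and 0 with median-of-ratios scaling, so no direction can be given. Of 54 amino acid genes 11 (20.4%) were higher and 8 (14.8%) lower, and 14 and 4 with median-of-ratios scaling. Glul, glutamine synthetase, was higher by 0.69 and Ddah1, which breaks down an inhibitor of nitric oxide synthesis, lower (-0.67). Of 52 purine, pyrimidine and one-carbon enzymes 6 (11.5%) were higher and 17 (32.7%) lower, and 13 and 13 with median-of-ratios scaling. Of 74 junction, integrin and costamere genes 15 (20.3%) were higher and 27 (36.5%) lower, and 17 and 19 with median-of-ratios scaling. There the muscle attachment genes Plec (0.45), Des (0.36) and Dsp (0.21) and the integrin Itga5 (0.48) were higher. The caveolin Cav1 (-0.73), Vim (-0.74) and the endothelial cadherin Cdh5 (-0.52) were lower.

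**Figure D5:**
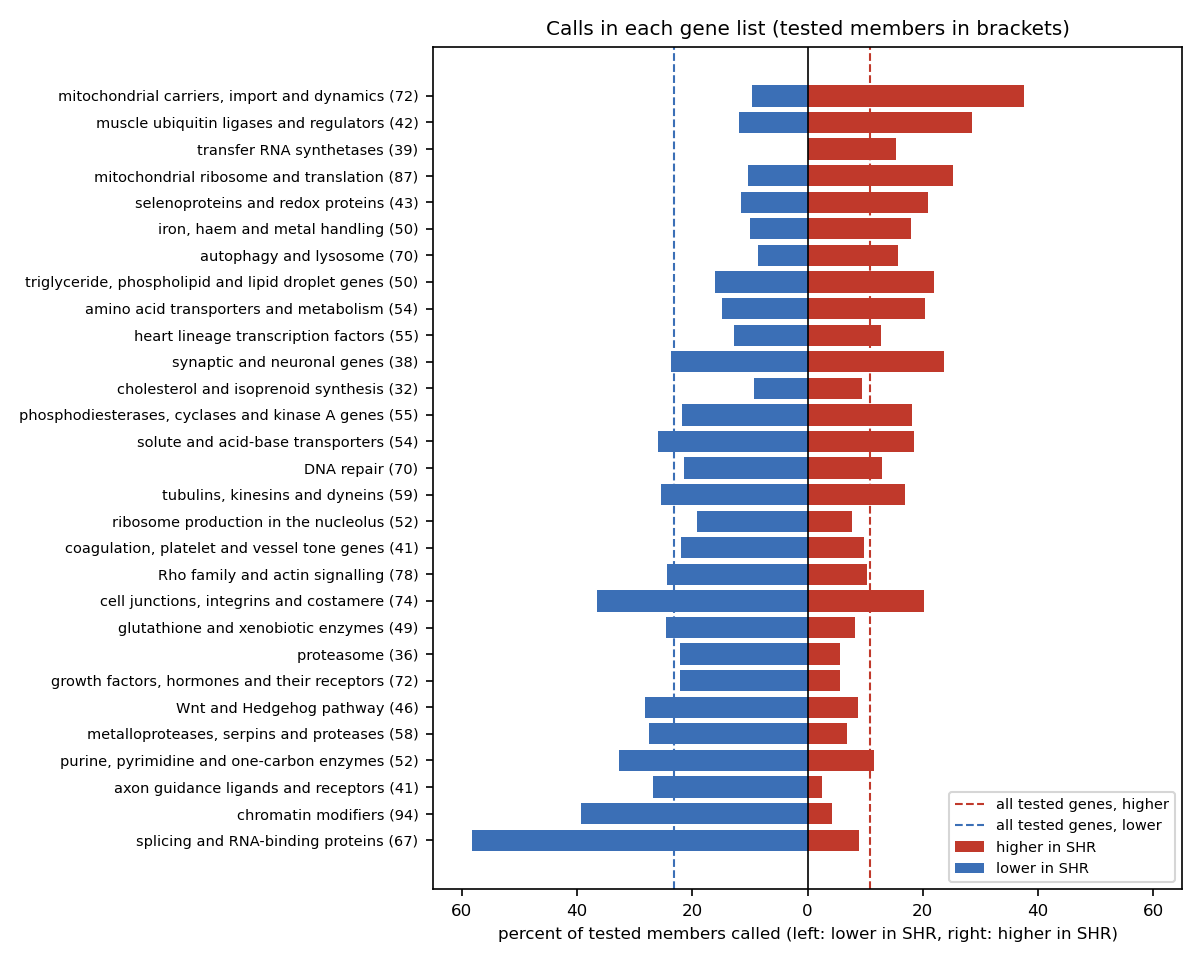
Percent of the tested members of each pathway list called higher (right, red) or lower (left, blue) in SHR, with dashed lines at 10.8% and 23.1% for all tested genes and the number tested in brackets. Splicing factors (58.2% lower) and mitochondrial carriers (37.5% higher) lie at the ends.

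In the FPKM as deposited, guidance and vessel growth genes were called lower at shares near the 23.1% of all genes. These were 26.8% in the axon guidance list, 22.2% among growth factors and 28.3% in the Wnt and Hedgehog list. Of 41 tested axon guidance ligands and receptors 1 was higher and 11 lower, and 2 and 11 with median-of-ratios scaling. Nrp2, a receptor of semaphorins and of VEGF-C, had 21.1, 17.9 and 21.2 FPKM across the WKY libraries and 12.3, 9.43 and 11.4 in SHR (-0.81, adjusted p = 0.00092). Its ligand gene Vegfc had 19.9, 17.8 and 17.9 FPKM across the WKY libraries and 9.85, 10.6 and 9.92 in SHR (-0.81, adjusted p = 3.74e-05). Both receptor and ligand were lower without overlap. Of 72 growth factors, hormones and receptors 4 were higher and 16 lower (6 and 10 with that scaling), with Fgf1 higher by 0.59. Of 46 Wnt and Hedgehog genes 4 were higher and 13 lower (8 and 7), with the Wnt antagonist Frzb higher by 1.22.

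Beside these vessel genes, 7 of 10 endothelial markers were lower in SHR and 0 higher, 5 with median-of-ratios scaling. Their summed level was 806 to 921 FPKM in WKY and 618 to 681 in SHR, and no marker was at or below 0.5 FPKM. The part of endothelial RNA in the vessel, junction and guidance results was not tested. Fibroblast markers summed to 2303 to 3004 FPKM in WKY and 2184 to 2418 in SHR with 1 of 10 lower. None of 9 tested macrophage markers was called, at 253 to 292 FPKM in WKY and 327 to 388 in SHR, with all 9 estimates above 0 and a median of 0.38. Of 4 tested mast cell and neutrophil markers 2 were higher and 1 lower, with sums of 15.5 to 18.7 FPKM in WKY and 16.4 to 45.7 in SHR and Ms4a2, Mcpt2 and Camp at or below 0.5 FPKM. S100a8 of neutrophils had 2.91, 2.61 and 2.10 FPKM across the WKY libraries and 9.31, 13.1 and 4.49 in SHR (adjusted p = 0.00855). Its partner S100a9 was called too (adjusted p = 0.0339) but lost the call in 6 of 17 alternatives, 4 of them with 1 library left out (range 0.00168 to 0.111). The Y-linked Eif2s3y lay between 46.2 and 49.5 FPKM in all 6 libraries.

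In SHR given oxymatrine, which were tested against the same WKY and SHR libraries, 4 genes are given as examples chosen after their values were seen. Setd4 had 5.21, 4.87 and 5.86 FPKM and Retsat 55.0, 50.5 and 44.97. Enah differed, at 46.0, 50.3 and 45.7 FPKM in treated SHR, where WKY had 25.4 to 30.4 and untreated SHR 64.8 to 88.1 (treated against untreated, adjusted p = 0.044). Kcne1 had 5.29, 4.41 and 4.32 FPKM in treated SHR, below every untreated SHR library, without a call (adjusted p = 0.188).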

How the data were processed

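The samples were rat left ventricles, 3 each of WKY, SHR and SHR given oxymatrine. Per the labels' protocols, total RNA was taken with Trizol and KAPA RNA HyperPrep libraries were run on BGISEQ-500. Tools named in the submitters' processing notes are RSEM 1.3.1, Bowtie2 and DESeq2 1.4.5, with build Rnor_6.0 and no order or settings. FPKM values were computed by the authors for each gene and sample, per the file headers. The authors also deposited log2 ratios and q-values for group comparisons, made in a way that no header states; neither was used. Of 22864 rows 3570 held no values, and 27 symbols turned into dates were restored through the Gene ID.

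The 12451 genes whose FPKM averaged 1 or more over 9 samples were tested on log2(FPKM + 1), pseudocount 1, with limma 3.58.1 in R 4.3.3: 1 fit over 3 groups, 6 residual degrees of freedom, mean-variance trend, two-sided, Benjamini-Hochberg adjustment, threshold 0.05. No count test was run. Among low genes, 770 ratios to the smallest value of a gene were formed, 35.7% of them no more than 0.1 from an integer; restricted, after that value was seen, to ratios of 1.5 to 4.5 it was 24.0% of 366, where even spacing gives 20%, so read counts were not recovered and depth stays unknown. On simulated data with 200 of 12451 genes changed, the fit found 74.6% of changes of 1.5-fold, 100% at 2-fold and 97% at 4-fold, and made 6 false calls. The simulation drew independent normal noise of the fitted spread and no scaling shift, so it gives no error rate for the 4215 calls.

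Gene order, names and promoter windows came from RefSeq (GRCr8), which held 11989 of the tested Gene IDs; its build differs from the authors', and coordinates are given only with printed windows. Gene lists, the rule for named genes and the tests were written down with earlier results of these data known. By that rule, named genes were the largest non-overlapping called differences without unnamed loci, called list members with the smallest p, genes present in 1 strain, and runs of neighbours. Gene copies and their parents, near pairs, the motif, level bins, the pseudogene count and some list members were chosen after values were seen. A first rule that found copies by symbol also caught true relatives and was dropped, apart from its counts over 292 genes. Alternatives were median-of-ratios scaling, quantile normalization, a pseudocount of 0.1, no filter, a minimum mean of 5 FPKM, only SHR and WKY, no trend, the replicate number as a block, and each sample left out. Python 3.11.15 and matplotlib 3.10.9 drew the figures. Not every gene under this naming rule is reported here.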

Additional observations from a re-analysis of the deposited data

How the results depend on the processing

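The count of called genes (4215) was 3440 to 4195 under the alternatives other than a left-out library, and 2882 to 4218 with 1 of the 9 libraries left out, lowest without WKY replicate 1. The count with a difference of at least 1 (196) was 327 with a pseudocount of 0.1 and 115 with a mean FPKM of at least 5, where fewer genes are tested, and 186 to 217 with a library left out. Genes present in 1 strain (11) numbered 9 with absence below 0.25 FPKM, 7 with presence from 5 FPKM, 11 with median-of-ratios scaling and 12 to 17 with a library left out, where the rule asks for fewer values. With the replicate number as a block 3550 genes were called, 197 of them by at least 1; same-numbered samples did not deviate together (correlations of -0.109 to 0.028), so the numbers do not pair the samples.

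Of 278 named genes tested, 265 were called; 243 kept the call in each alternative that tested them (17, or 16 for genes below a mean of 5 FPKM), 22 lost it in at least 1 (among them Runx1, Cacna1g, Mbnl1, Mt1, Igf1, S100a9, Hcn4, Myl7 and Gapdh) and 0 reversed. Of those not called, 5 were called in at least 1 alternative. Counts over lists, added after the data were seen, shifted with scaling and with left-out libraries. Without read counts, precision at low levels rests on 3 samples per group.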
